A study of Mus musculus with 32 samples.

Results

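Long noncoding RNAs that act mainly in the cell nucleus were followed in a study that purified ribosome-bound RNA from layer 5b pyramidal neurons of the mouse motor cortex. The 6 noncoding genes Malat1, Meg3, Rian, Neat1, Miat and Kcnq1ot1 were taken by symbol from the gene count tables, with Cdr1 as the 7th, to measure how much RNA of this kind is present in ribosome immunoprecipitates. They are 7 of the 24091 named genes in the tables, and each was found under its own symbol. The choice used no measured value, but it was made with earlier results of these data known.

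The mice carried an EGFP-L10a transgene, a green-fluorescent tag on a ribosomal protein, placed under the regulatory sequence of a marker gene in a bacterial artificial chromosome (bacTRAP). In the Gprin3-bacTRAP line ES152 the tag is expressed in lower layer 5b pyramidal cells, and in the Colgalt2-bacTRAP line DU9 in upper layer 5b pyramidal cells. Polysomes were pulled down with antibodies to EGFP from tissue of adults aged 8 to 17 weeks. RNA from these immunoprecipitates (IPs) was sequenced beside RNA from the homogenate before the pull-down (input). The 32 libraries form 10 groups. The baseline set, from wild-type primary motor cortex (M1), has 2 IPs and 3 inputs of the Gprin3 line and 2 IPs and 2 inputs of the Colgalt2 line. The second set comes from crosses of each line to SOD1*G93A mice, which carry a mutant human SOD1 transgene and are a model of amyotrophic lateral sclerosis. From the Gprin3 cross there are 2 IPs of wild-type littermates and 3 IPs of SOD1*G93A mice. The same cross gave 5 wild-type and 6 SOD1*G93A inputs, all from M1. From the Colgalt2 cross there are 3 wild-type and 4 SOD1*G93A IPs and no input. Every mouse, controls and inputs included, came from a bacTRAP line. The tissue labels of these 7 Colgalt2 IPs conflict, since the brain region field and the extraction protocol say whole cortex and the source name says M1, so they are called whole-cortex IPs here.

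In neurons, RNA made in the nucleus reaches ribosomes only after export, and noncoding RNAs that stay in the nucleus are normally not translated. Malat1 sits in nuclear speckles, bodies rich in splicing factors. Neat1 is the scaffold of paraspeckles, which form around it at its site of transcription. Meg3 and Rian are transcribed from the maternal copy of the Dlk1-Dio3 imprinted domain, and Rian hosts snoRNAs and miRNAs in its introns. Kcnq1ot1 is transcribed from the paternal copy of the Kcnq1 domain and silences neighbouring genes in cis. Miat, also called Gomafu, is held in the nuclei of neurons and carries repeats bound by the splicing factor SF1. Cdr1 differs from the other members: the RNA known from this locus in neurons is a circle read from the opposite strand, largely cytoplasmic, which binds the miRNA miR-7 and is cleaved through a site for miR-671.

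Library totals ran from 10863628 to 77220890 counts, and levels are given as CPM, each gene's counts scaled to the library total. No label says that the replicates of a group are separate animals, so a p-value here measures the spread between libraries, which may be technical. In bulk RNA, fewer cells of a type and less RNA per cell cannot be told apart. Overlap between libraries is described for the members only. The share of all genes without overlap was not computed, so lack of overlap is not set against a background. Layer 5b markers summed to 2767 to 4728 CPM in the 16 IPs and 1245 to 1407 CPM in the 16 inputs, and none of the 20 was at 0 in any library. Strand was not stated for the counting. Each gene has its own counts, but the strand that reads counted to Kcnq1ot1 came from is therefore not known. Its span lies within that of Kcnq1 on the other strand. The same holds for Cdr1, which lies opposite C230004F18Rik, the annotated antisense gene. Among the 7 whole-cortex Colgalt2 IPs, wild-type IPs 1 and 2 and SOD1*G93A IP 2 stood apart in most of these RNAs. Wild-type IP 1 was the highest of the 16 IPs for 6 members, all but Cdr1, and ranges over all IPs are given with and without it.

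In the GENCODE M21 annotation of GRCm38 (mm10), Malat1 lies at chr19:5795690-5802672 and Neat1 at chr19:5824708-5845478, neighbours on the minus strand. Meg3 at chr12:109541001-109571726 and Rian at chr12:109603940-109661716 lie on the plus strand of the same imprinted domain, and the Rian span holds 13 snoRNA genes and 3 miRNA hairpins. Miat spans chr5:112213228-112229395 on the minus strand. Kcnq1ot1 is annotated as a single unspliced exon of 93.1 kb on the minus strand, chr7:143203458-143296549. Cdr1 is annotated as a single exon of 1554 bases on the minus strand, chrX:61184005-61185558.

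Cdr1 is shown by its antisense sequence, because the sense strand annotated as Cdr1 is not the strand that pairs with miR-7. The miRNAs (RefSeq, GRCm38.p6) have their seed, bases 2 to 8, in capitals. The target sites (GENCODE M21, plus strand of chromosome X) have in capitals the bases that match the seed of miR-7, which miR-7a and miR-7b share.
mmu-miR-7a-5p: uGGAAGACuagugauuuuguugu
mmu-miR-7b-5p: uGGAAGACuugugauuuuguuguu
mmu-miR-671-5p: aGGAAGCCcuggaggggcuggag
site at chrX:61184032-61184054: tcctgaaaatccaccGTCTTCCa
site at chrX:61184140-61184162: ttcccaaaaatccaaGTCTTCCc
site at chrX:61184194-61184216: ttcccaaaagtccatGTCTTCCc
Among distinct sequences, the 3 sites are those with the most bases complementary to miR-7a, 15, 14 and 13 of 23. Repeats of a sequence were taken once, and ties went to the first position. The motif GTCTTCC occurs 79 times in the 1554 bases opposite Cdr1, or 50.8 matches per kb, and 0 times on the Cdr1 strand itself. Of 29758 genes with a transcript of at least 1000 bases, 24.6% hold the motif on their sense strand and 0 reach that density. An annotated antisense transcript of 3354 bases contains the whole stretch and holds 123 matches, as well as a near-complete match to miR-671, shown with its complementary bases in capitals.
miR-671 match: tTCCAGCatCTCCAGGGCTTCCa
It pairs with 19 of the 23 bases of the miRNA. These matches describe letters in the reference and measure neither binding nor cleavage.

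**Figure D1:**
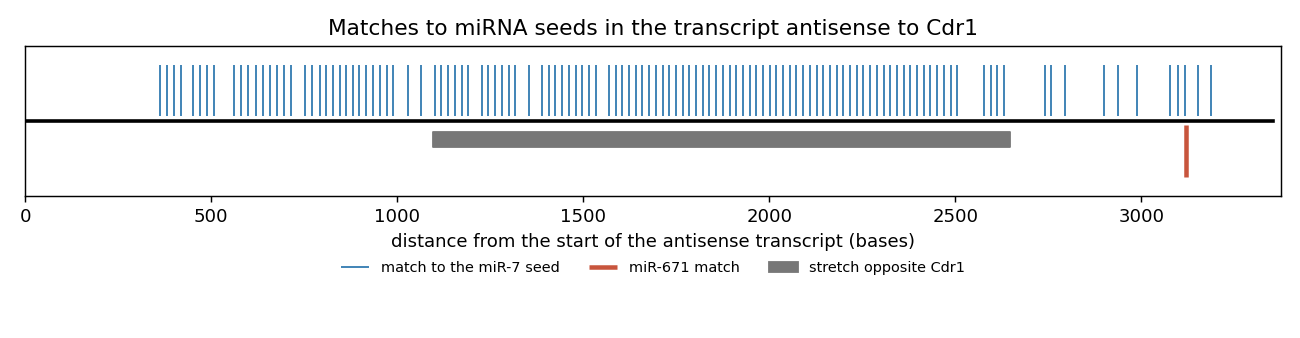
Positions along the 3354-base antisense transcript (x axis, bases from its start) of the 123 matches to the miR-7 seed, of the miR-671 match and of the stretch opposite Cdr1. The stretch opposite Cdr1, positions 1095 to 2648, holds 79 of the seed matches, and the miR-671 match lies beyond it at 3119 to 3141.

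Miat is shown by the repeats for which it is known, because it was among the RNAs most depleted from the baseline Gprin3 IPs. The window of Miat (positions 4923 to 5072 of 9163 bases) is the one of 150 bases with the most copies of TACTAAC, in capitals, the repeat that SF1 binds.
Miat: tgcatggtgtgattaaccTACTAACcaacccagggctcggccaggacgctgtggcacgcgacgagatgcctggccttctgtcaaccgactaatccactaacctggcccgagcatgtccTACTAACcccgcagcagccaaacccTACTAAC
Miat holds 6 copies, 0.655 per kb, a density reached by 0.786% of the transcripts, and 7.67% hold any copy. Kcnq1ot1 holds 4 copies, Neat1 holds 1, and the other members have 0 on their sense strand. Both strands were searched, and TACTAAC and GTCTTCC cannot share a stretch of bases.

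In whole tissue these RNAs varied less between libraries than in the IPs. Together the 7 genes took 1.21% to 2.51% of all counts in the inputs and 0.0538% to 0.633% in the IPs, with no overlap. The highest IP was wild-type Colgalt2 IP 1, and without it the IPs reached 0.370%. Malat1 was the highest or next-highest of all 24091 genes by mean CPM in each of the 4 input groups, and Cdr1 ranked 9 to 12. In the baseline Gprin3 IPs Malat1 ranked 217, Cdr1 848 and Neat1 13802. Per kb of exon, Cdr1 was first in the baseline Gprin3 input at 2330 CPM per kb, and Malat1 followed at 1752 CPM per kb. Meg3 was at 36.9 CPM per kb there, Rian at 6.48, Miat at 6.10, Neat1 at 0.670 and Kcnq1ot1 at 0.197. Meg3 stayed in 3rd place and Kcnq1ot1 in 7th in all 10 groups on this scale. The order of Cdr1 and Malat1 was reversed only in the baseline Colgalt2 IPs, where Malat1 had 238 and Cdr1 192 CPM per kb.

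The span of values over all libraries separated the members. The 16 inputs come from M1, whereas the 16 IPs pool both cell types and, for some Colgalt2 IPs, whole cortex. Differences between groups are therefore part of the IP span. Over the 16 inputs the highest CPM was 1.5 times the lowest for Rian and 3.12 times for Neat1, with the other members in between. Over the 16 IPs the same ratio was 5.15 for Cdr1, 7.94 for Rian and 12.8 for Malat1. It was 96.5 for Meg3, 156 for Miat, 301 for Kcnq1ot1 and 710 for Neat1. The lowest IP rests on 16 counts for Miat, 10 for Kcnq1ot1 and 1 for Neat1. Without wild-type Colgalt2 IP 1, a comparison added after seeing the data, the ratio was 7.85 for Malat1, 5.66 for Rian, 45.1 for Meg3, 61.4 for Miat, 163 for Kcnq1ot1 and 216 for Neat1. Leaving out the lowest IP instead gave 51.5 for Meg3 (baseline Gprin3 IP 2), 82.3 for Miat (SOD1*G93A Gprin3 IP 1), 197 for Kcnq1ot1 (SOD1*G93A Colgalt2 IP 3) and 68.6 for Neat1 (baseline Gprin3 IP 1). So the order of Meg3, Miat, Kcnq1ot1 and Neat1 by this ratio rested on single libraries. All 16 IPs were below every input for Malat1 and Cdr1, 15 for Rian, 13 for Meg3 and Miat, 11 for Neat1 and 10 for Kcnq1ot1. Kcnq1ot1 was above every input in 5 IPs, and Meg3, Neat1 and Miat in 1 IP, wild-type Colgalt2 IP 1. The baseline Gprin3 IPs were the lowest of the 10 groups by mean for every member. Of the 9 steps between neighbours in each member's order of groups, few were free of overlap between libraries: 1 for Malat1, Rian, Neat1 and Cdr1, and 2 for Meg3, Miat and Kcnq1ot1. The plot of CPM by library shows these ranges.

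**Figure D2:**
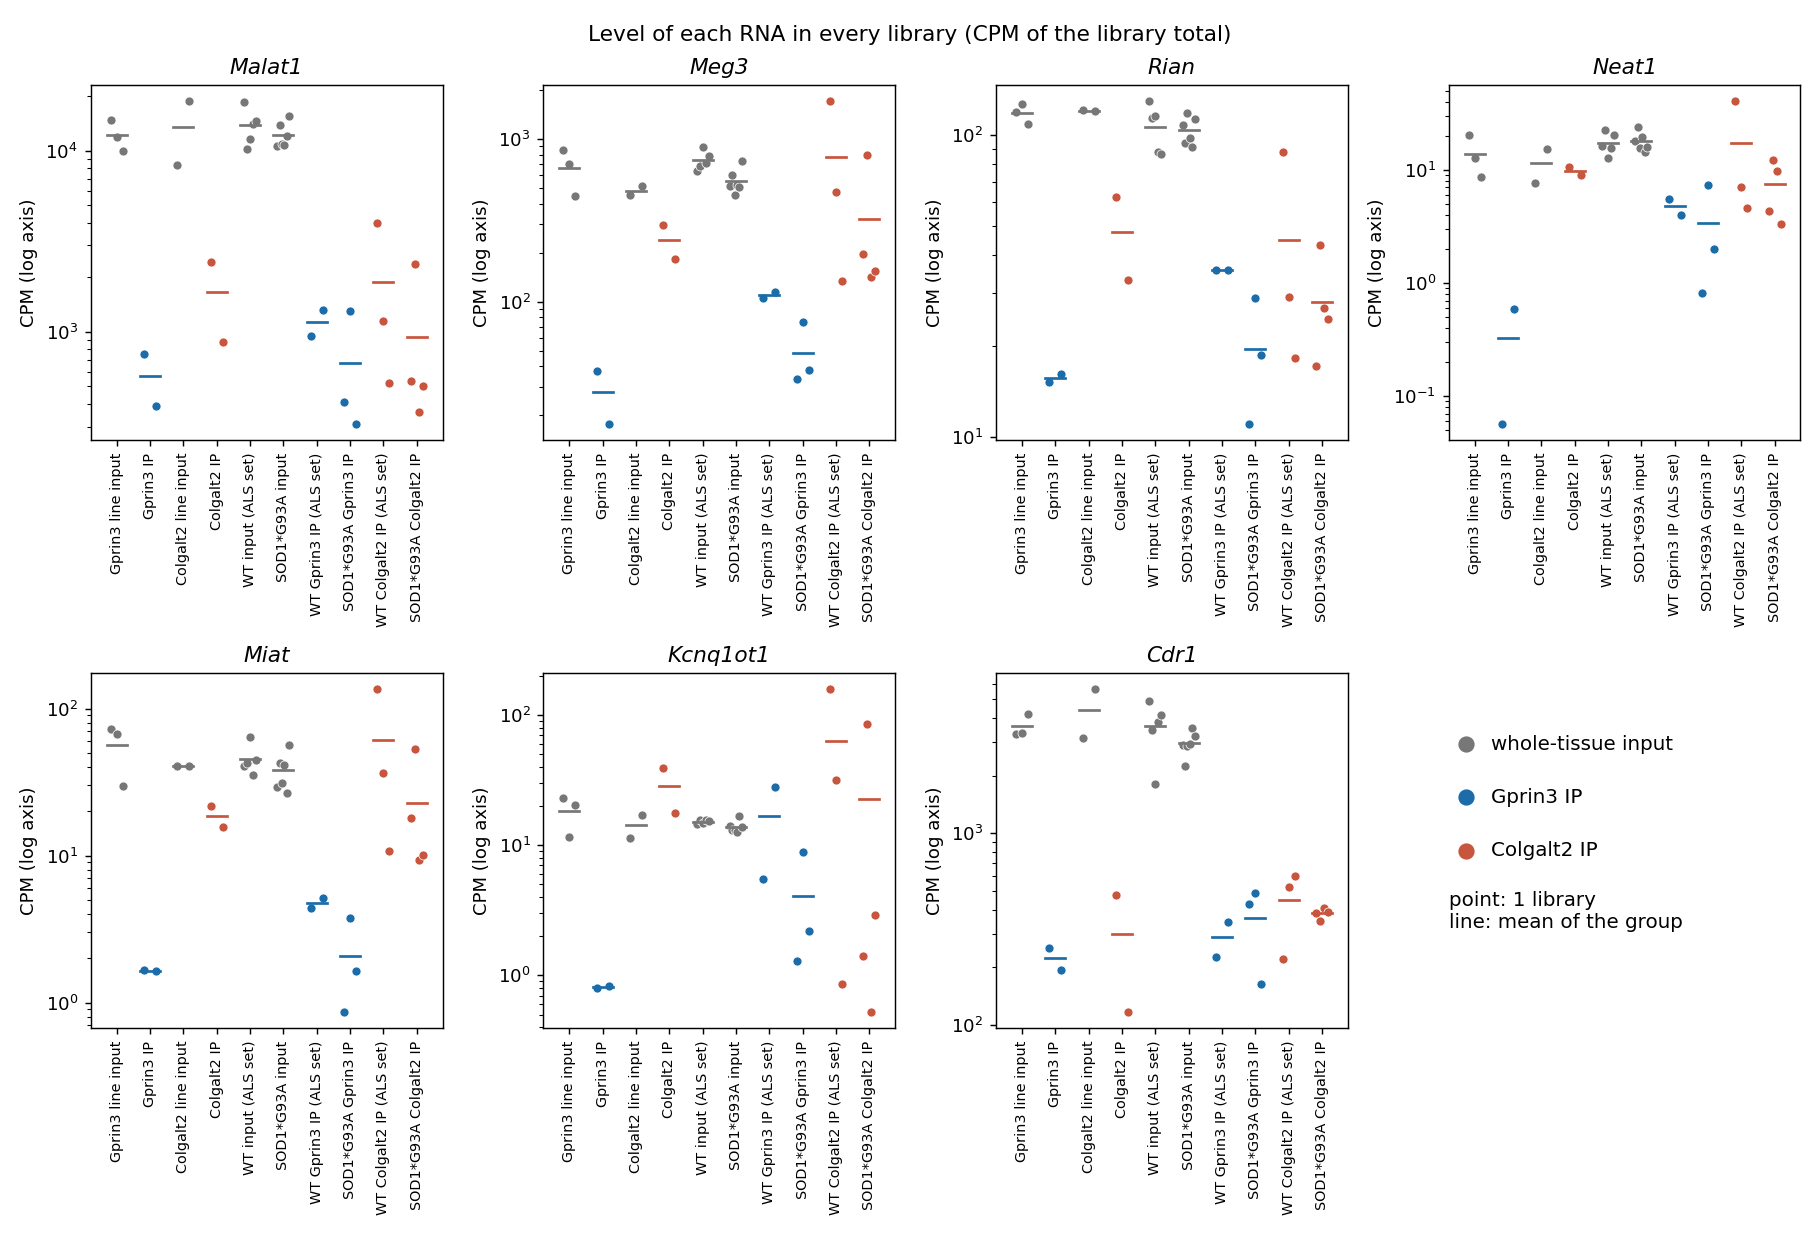
CPM (log axis) of each member in each of the 32 libraries, by group, with grey points for input, blue for Gprin3 IP and red for Colgalt2 IP, and a line at each group mean. Input points span a smaller ratio than IP points for all 7 genes. The baseline Gprin3 IPs have the lowest group mean for every gene, and the whole-cortex Colgalt2 IPs spread widest for Kcnq1ot1.

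In the baseline Gprin3 line all 7 RNAs were lower in ribosome IPs than in input, with log2 fold changes from -2.69 to -5.20. The speckle RNA Malat1 measured 757 and 391 CPM in the IPs and 14847, 11908 and 9944 CPM in the inputs. The paraspeckle RNA Neat1 measured 0.0571 and 0.591 CPM, which are 1 and 10 counts, against 20.5, 12.7 and 8.58 CPM. Both IPs were below all inputs for each. The mean IP level of Malat1 was 4.69% of the mean input level, and that of Neat1 2.33%. The fitted log2 fold change was -4.19 ± 0.32 (SE) for Malat1, with a Benjamini-Hochberg adjusted p of 4.5e-05 from the quasi-likelihood test of edgeR, the test behind every adjusted p in the text. For Neat1 it was -5.20 ± 0.66 with an adjusted p of 0.000151, and it ranged from -4.36 without Gprin3 IP 1 to -7.56 without Gprin3 IP 2. Without Gprin3 IP 1 the value was -4.78 for Malat1 and -5.04 for Meg3.

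The imprinted maternal RNAs followed in the same libraries. Meg3 measured 37.6 and 17.7 CPM in the IPs and 853, 703 and 445 CPM in the inputs. Rian measured 15.2 and 16.2 CPM in the IPs and 119, 127 and 109 CPM in the inputs. Neither overlapped between IP and input. The log2 fold change of Meg3 was -4.36 ± 0.41 (adjusted p = 0.000154). That of Rian was -2.69 ± 0.17 (adjusted p = 1.19e-06), the smallest of the 7, and 13.3% of its input level remained in the IP.

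The paternal RNA Kcnq1ot1 measured 0.799 and 0.827 CPM in the IPs and 23.1, 11.5 and 20.5 CPM in the inputs. Its log2 fold change was -4.27 ± 0.43 (adjusted p = 2.98e-05). The SF1-binding RNA Miat measured 1.66 and 1.65 CPM against 73.0, 67.2 and 29.9 CPM. Its log2 fold change was -4.87 ± 0.41 (adjusted p = 9.19e-06), and with either IP left out the size held while the adjusted p rose to 0.0559 or 0.0557. Cdr1 measured 252 and 193 CPM against 3303, 3359 and 4205 CPM, a log2 fold change of -3.80 ± 0.18 (adjusted p = 1.9e-07). No IP overlapped an input for any of these 3. In this comparison 29.2% of all tested genes passed, with 15.3% passing as lower, beside 7 of 7 members. Over all genes 2019 were higher and 2223 lower with TMM factors, and 988 and 3212 with library totals, which put the median of all genes at -0.25 in place of -0.03. All 7 members passed the low-count filter in every comparison, but Neat1, Miat and Kcnq1ot1 had few counts in these IPs, and a gene that passes through its inputs alone can only be seen to fall.

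Glial markers were lower in the same IPs, and more interneuron markers were higher than lower. All 14 oligodendrocyte markers fell, from 1126 to 1497 CPM summed in the inputs to 182 to 197 CPM in the IPs. Of 14 astrocyte markers 13 fell and 1 rose, from 3079 to 3550 CPM down to 963 to 985 CPM. Of 15 microglia markers 13 fell, from 69.9 to 114 CPM down to 20.3 to 20.6 CPM, with Tmem119 at 0 in both IPs and 5 others at 0 in 1 IP. Of 12 endothelial markers 2 fell, and Cldn5, Vwf and Cdh5 were at 0 in an IP. Of 16 interneuron markers 7 rose and 3 fell, from 1642 to 1813 CPM summed in the inputs to 2719 to 2814 CPM in the IPs. The part of these cells in the members' result was not tested.

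Among wild-type littermates of the Gprin3 cross, 6 of the 7 RNAs were again lower in IP than in M1 input, and Kcnq1ot1 was not. Malat1 measured 947 and 1322 CPM in the IPs and 18624, 10257, 11654.5, 13985 and 14578 CPM in the inputs, a log2 fold change of -3.48 ± 0.34 (adjusted p = 0.000538). Meg3 measured 105 and 114 CPM in the IPs and 635 to 898 CPM in the inputs, with -2.64 ± 0.12 (adjusted p = 1.66e-11). Both genes' IPs lay below every input. Rian measured 35.7 CPM in both IPs against 86.6 to 129.7 CPM, and Neat1 5.54 and 3.99 CPM against 12.6 to 22.3 CPM. Their log2 fold changes were -1.46 ± 0.15 (adjusted p = 5.39e-07) and -1.74 ± 0.26 (adjusted p = 2.48e-05). Miat measured 4.42 and 5.12 CPM against 35.5 to 64.1 CPM, a change of -3.13 ± 0.23 (adjusted p = 3.82e-09). None of these 3 overlapped between IP and input. Cdr1 measured 227 and 346 CPM against 4914, 3461, 1817, 3801 and 4131 CPM, a change of -3.54 ± 0.52 (adjusted p = 0.00391), again with no overlap. Genes called lower made up 19.8% of those tested, and genes called either way 40.4%. These were 3079 higher and 2958 lower, or 2319 and 3694 with library totals.

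Kcnq1ot1 in these wild-type littermates was split between its IPs. It measured 5.50 CPM in IP 1 and 27.8 CPM in IP 2, and 14.5, 15.5, 14.7, 15.7 and 15.4 CPM in the inputs. So 1 IP lay below and the other above all 5 inputs, and the log2 fold change was 0.25 ± 0.47 (adjusted p = 0.714). Without IP 1 it was 1.0 and without IP 2 it was -1.34. The Y-linked gene Ddx3y was at 0 CPM in IP 1 and 72.4 CPM in IP 2, and the part of sex in this split was not tested.

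In SOD1*G93A mice of the Gprin3 cross all 7 RNAs were lower in the IPs than in the 6 inputs. Malat1 measured 412, 1308 and 311 CPM in the IPs, and 10551.5, 11446 and 15595.5 CPM as the lowest, median and highest input. Cdr1 measured 429, 487 and 164 CPM in the IPs and 2243, 2905 and 3530.0 CPM as lowest, median and highest input. Kcnq1ot1 measured 1.30, 8.82 and 2.21 CPM against 12.6, 13.4 and 16.9 CPM. Every IP was below every input for these 3, as it was for the other 4. The log2 fold change was -4.13 ± 0.50 for Malat1 (adjusted p = 0.000211) and -2.96 ± 0.33 for Cdr1 (adjusted p = 5.58e-05). It was -1.72 ± 0.43 for Kcnq1ot1 (adjusted p = 0.00408), the smallest of the 7. Meg3, at -3.45 ± 0.24, Rian, at -2.35 ± 0.21, Neat1, at -2.38 ± 0.46, and Miat, at -4.14 ± 0.38, had adjusted p-values of 1.39e-07, 8.33e-07, 0.0007 and 8.6e-07. Of all tested genes 49.8% were called and 25.1% were called lower. SOD1*G93A IP 2 was the highest of the 3 IPs for all 7 genes, and without it the change was -4.98 for Malat1, -3.59 for Neat1, -4.83 for Miat and -2.89 for Kcnq1ot1. This comparison and the previous one share no library.

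The same glial markers were lower in these IPs of the cross. In wild-type littermates 11 of 14 oligodendrocyte markers fell, from 1131 to 1497 CPM summed in the inputs to 526 to 720 CPM in the IPs. Of astrocyte markers 8 of 14 fell and 1 rose, to 1839 to 2770 CPM, and of microglia markers 10 of 15 fell, to 42.1 to 69.0 CPM. In SOD1*G93A mice all 14 oligodendrocyte markers fell, from 974 to 1419 CPM down to 158 to 164 CPM. Of astrocyte markers 13 of 14 fell and 1 rose, to 845 to 870 CPM, and of microglia markers 13 of 15 fell, to 14 to 24.5 CPM. Interneuron markers summed to 2133 to 2201 CPM in wild-type IPs against 1539 to 1676 CPM in input, with 7 of 16 higher and 3 lower. In SOD1*G93A mice they stood at 2228 to 2504 CPM against 1496 to 1578 CPM, with 9 higher and 3 lower. The part of these cells in the members' result was not tested.

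**Figure D3:**
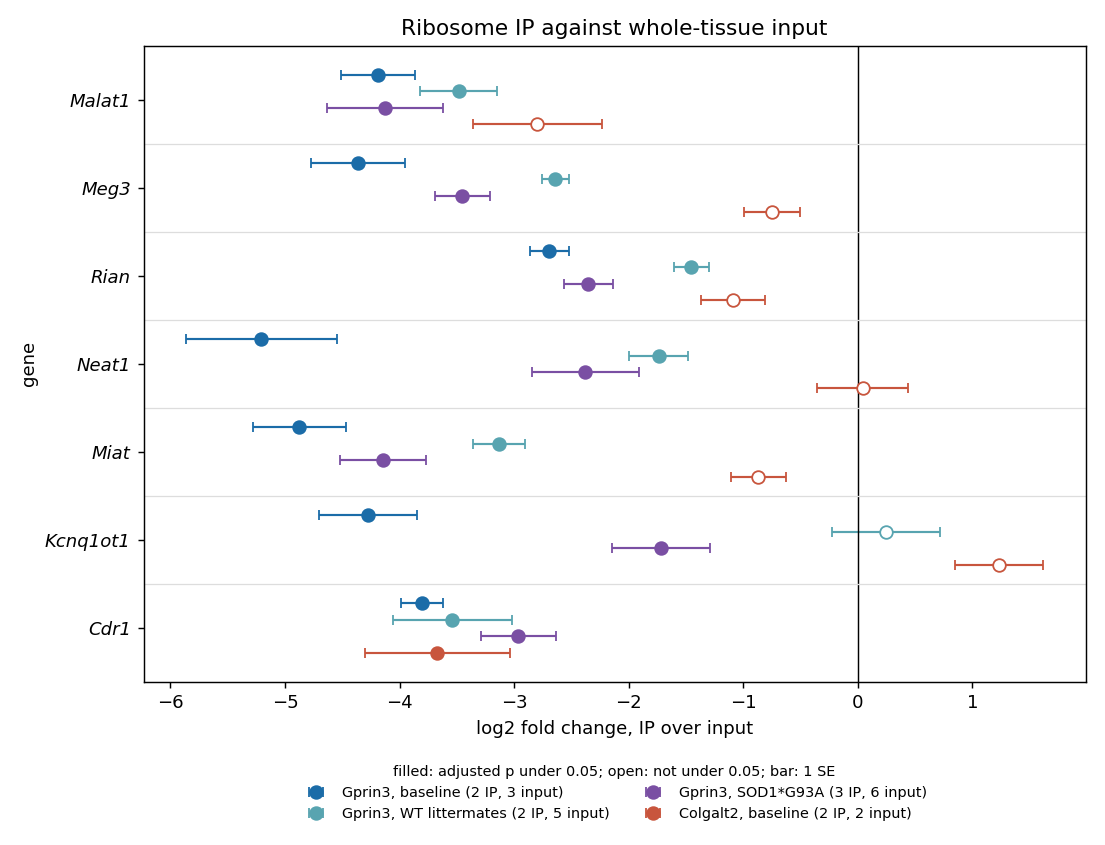
Log2 fold change of IP over input (x axis, with bars of 1 SE) for each member in the baseline Gprin3, baseline Colgalt2, wild-type littermate and SOD1*G93A comparisons. Filled points have an adjusted p under 0.05: all 7 in the baseline Gprin3 line and in SOD1*G93A mice, 6 in wild-type littermates, and Cdr1 alone in the baseline Colgalt2 line.

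In the baseline Colgalt2 line, upper layer 5b, only Cdr1 passed the test between IP and input. Cdr1 measured 479 and 117 CPM in the IPs and 3161 and 5643 CPM in the inputs, a log2 fold change of -3.67 ± 0.63 (adjusted p = 0.0437). Leaving out input 1 gave -4.02 (adjusted p = 0.096) and leaving out input 2 gave -3.21 (adjusted p = 0.0507). Without IP 1 the change was -4.92 and without IP 2 it was -3.02. Malat1 measured 2441 and 882 CPM against 8338 and 18765 CPM. Its IPs lay below its inputs, and at -2.80 ± 0.56 it had an adjusted p of 0.052. Only 2.65% of the tested genes passed in this comparison of 2 IPs with 2 inputs, and 0.906% passed as lower, while 0 genes passed with library totals.

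The imprinted and neuronal RNAs were retained more in the Colgalt2 IPs. Meg3 measured 298 and 183 CPM in the IPs and 449.7 and 512 CPM in the inputs, so its mean in the IP was 50.0% of input, against 4.15% in the Gprin3 line. Rian measured 62.6 and 33.1 CPM against 121 and 120.2 CPM, or 39.7% of input. Miat measured 21.6 and 15.6 CPM against 40.6 and 40.5 CPM, or 45.9% of input. Each had both IPs below both inputs, with adjusted p-values of 0.118, 0.0745 and 0.0843. Neat1 measured 10.6 and 8.96 CPM in the IPs and 7.63 and 15.4 CPM in the inputs, and its groups overlapped, with a log2 difference of 0.04 ± 0.39 (adjusted p = 0.959). Kcnq1ot1 went the other way, at 39.1 and 17.6 CPM in the IPs against 11.4 and 17.0 CPM in the inputs. Its IPs lay above its inputs, with a difference of 1.23 ± 0.38 (adjusted p = 0.106). DESeq2 on the same counts called 6 members, all but Neat1, with Kcnq1ot1 higher. In the authors' deposited table Cdr1, Malat1, Rian and Kcnq1ot1 have adjusted p-values under 0.05 in this comparison, with log2 fold changes of -3.69, -2.82, -1.11 and 1.21.

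Set side by side, the Gprin3 IPs held less of 6 of the 7 RNAs than the Colgalt2 IPs at baseline. The log2 difference was -3.09 ± 0.37 for Meg3 (adjusted p = 0.00067), -3.47 ± 0.51 for Miat (adjusted p = 0.00208) and -5.08 ± 0.54 for Kcnq1ot1 (adjusted p = 0.00042). It was -4.90 ± 0.89 for Neat1 (adjusted p = 0.00704), -1.59 ± 0.35 for Rian (adjusted p = 0.0183) and -1.49 ± 0.41 for Malat1 (adjusted p = 0.0437). For each of these 6 both Gprin3 IPs lay below both Colgalt2 IPs, and how often all genes separate in this way was not computed. Cdr1 did not pass, at -0.37 ± 0.43 (adjusted p = 0.667), with its Gprin3 IPs at 252 and 193 CPM inside the span of the Colgalt2 IPs. Of all tested genes 6.67% passed and 4.45% passed as lower in the Gprin3 IPs.

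The calls of Malat1 and Rian were lost with single libraries left out of this comparison. That leaves 1 library in a group, so the part of the fewer samples cannot be told apart from that of the library. With a library left out, Malat1 ranged from -0.68 without Colgalt2 IP 1 to -2.08 without Gprin3 IP 1. Leaving out Gprin3 IP 1 or IP 2 gave it an adjusted p of 0.114 or 0.398, and leaving out Colgalt2 IP 1 or IP 2 gave 0.385 or 0.0777. In the authors' deposited table its log2 fold change is -1.50 with an adjusted p of 0.0667. Leaving out Gprin3 IP 1, Gprin3 IP 2 or Colgalt2 IP 1 gave Rian adjusted p-values of 0.137, 0.119 and 0.0668. Neat1 was -4.06 without Gprin3 IP 1 and -7.19 without Gprin3 IP 2, Meg3 was -3.77 without Gprin3 IP 1, and Kcnq1ot1 was -4.50 without Colgalt2 IP 1. Cdr1 was 0.86 without Colgalt2 IP 1 (adjusted p = 0.0308) and -1.01 without Colgalt2 IP 2 (adjusted p = 0.00155), so its direction rested on which Colgalt2 IP was kept.

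A test of the difference itself, IP over input in the Gprin3 line minus the same in the Colgalt2 line, used all 9 baseline libraries. Meg3, at -3.53 ± 0.46 on the log2 scale (adjusted p = 0.00104), and Rian, at -1.52 ± 0.31 (adjusted p = 0.00953), had a lower ratio in the Gprin3 line. So did Neat1, at -5.16 ± 0.83 (adjusted p = 0.00316), and Miat, at -3.92 ± 0.50 (adjusted p = 0.000884). Kcnq1ot1 was lower too, at -5.42 ± 0.60 (adjusted p = 0.000421). In the Colgalt2 line the mean IP level was 85.0% of input for Neat1 and 199% for Kcnq1ot1. In the Gprin3 line these shares were 2.33% and 4.43% at baseline, and 27.3% and 110% in wild-type littermates of the second set. The littermate share of Kcnq1ot1 averages IPs at 36.3% and 184%. Baseline and littermate shares were 4.15% and 14.7% for Meg3, 13.3% and 33.5% for Rian, and 2.92% and 10.5% for Miat. The part of the set in the difference between lines was not tested. Malat1 differed by -1.30 ± 0.60 (adjusted p = 0.189) and Cdr1 by -0.05 ± 0.60 (adjusted p = 0.973). These 5 of 7 stand beside 8.69% of all tested genes called and 5.46% called lower. Rian was not called without Colgalt2 input 2 (adjusted p = 0.0585). Meg3 moved to -4.26 without Gprin3 IP 1, and Neat1 to -4.36 or -7.56 when Gprin3 IP 1 or IP 2 was left out, and -5.75 without Colgalt2 input 2.

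Markers of other cells also differed between the baseline IPs of the lines. Endothelial markers summed to 37.1 to 45.8 CPM in the Gprin3 IPs and 136 to 218 CPM in the Colgalt2 IPs, with 9 of 12 lower in the Gprin3 IPs. Astrocyte markers stood at 963 to 985 CPM against 1992 to 2932 CPM, with 6 of 14 lower. Oligodendrocyte markers stood at 182 to 197 CPM against 409 to 824 CPM, with 4 of the 12 tested lower, and microglia markers at 20.3 to 20.6 CPM against 34.9 to 75.8 CPM, with 3 of 11 tested lower. Interneuron markers went the other way, at 2719 to 2814 CPM in the Gprin3 IPs against 1317 to 1948 CPM in the Colgalt2 IPs, with 8 of 16 higher and 0 lower. The part of these cells in the members' difference was not tested.

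The 7 whole-cortex Colgalt2 IPs did not form tight groups. Wild-type IP 1 was highest, SOD1*G93A IP 2 next and wild-type IP 2 after it for 5 of the members, Malat1, Meg3, Rian, Miat and Kcnq1ot1. Kcnq1ot1 measured 158, 31.6 and 0.855 CPM in the wild-type IPs and 1.40, 85.4, 0.523 and 2.89 CPM in the SOD1*G93A IPs. Those 3 libraries lay above the highest of all 16 inputs and the other 4 below the lowest. Meg3 measured 1710.5, 474 and 133 CPM in wild-type and 196, 799, 141 and 155 CPM in SOD1*G93A IPs. Malat1 measured 3973, 1143 and 521 CPM and then 536, 2364, 361 and 504 CPM, and no library of either genotype reached the input range. Rian measured 87.9, 29.2 and 18.3 CPM in wild-type and 17.2, 43.2, 26.7 and 24.5 CPM in SOD1*G93A IPs.

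Neat1 and Cdr1 departed from that order. Neat1 measured 40.5, 7.01 and 4.59 CPM in wild-type and 4.32, 12.3, 9.84 and 3.32 CPM in SOD1*G93A IPs, so SOD1*G93A IP 3 came before wild-type IP 2. Cdr1 measured 220.2, 528 and 603 CPM in wild-type and 384, 349, 409 and 389 CPM in SOD1*G93A IPs. Wild-type IP 1, the highest for every other member, was the lowest of the 7 for Cdr1. Miat measured 135, 36.6 and 10.7 CPM and then 18.1, 53.0, 9.32 and 10.2 CPM.

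Xist and Mirg, named after their values were seen, stood high in the same libraries. Xist, the RNA that coats the inactive X chromosome, measured 352, 164 and 0.214 CPM in the wild-type IPs and 3.54, 138, 1.62 and 0 CPM in the SOD1*G93A IPs, against at most 14.2 CPM in any input. Mirg, a miRNA host of the Dlk1-Dio3 domain, measured 13.2, 3.47 and 0.0712 CPM and then 0.367, 4.75, 0.052 and 0.263 CPM. A list of other long noncoding RNAs, Xist and Mirg among them, varied less. It summed to 2868, 2325 and 1894 CPM and then 1918, 2422, 1986 and 2051 CPM. Host genes of snoRNAs summed to 102, 57.4 and 43.1 CPM and then 62.0, 74.6, 65.5 and 48.0 CPM. The Y-linked gene Ddx3y was present in all 7, at 9.36 to 35.7 CPM. Counts over 1432 olfactory and vomeronasal receptor genes, which cortex does not use, summed to 32.5 CPM in wild-type IP 1 and 12.6 to 19 CPM in the other 6, against 24.1 to 41.0 CPM in the inputs. Whether material other than ribosome-bound RNA set these levels was not tested.

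**Figure D4:**
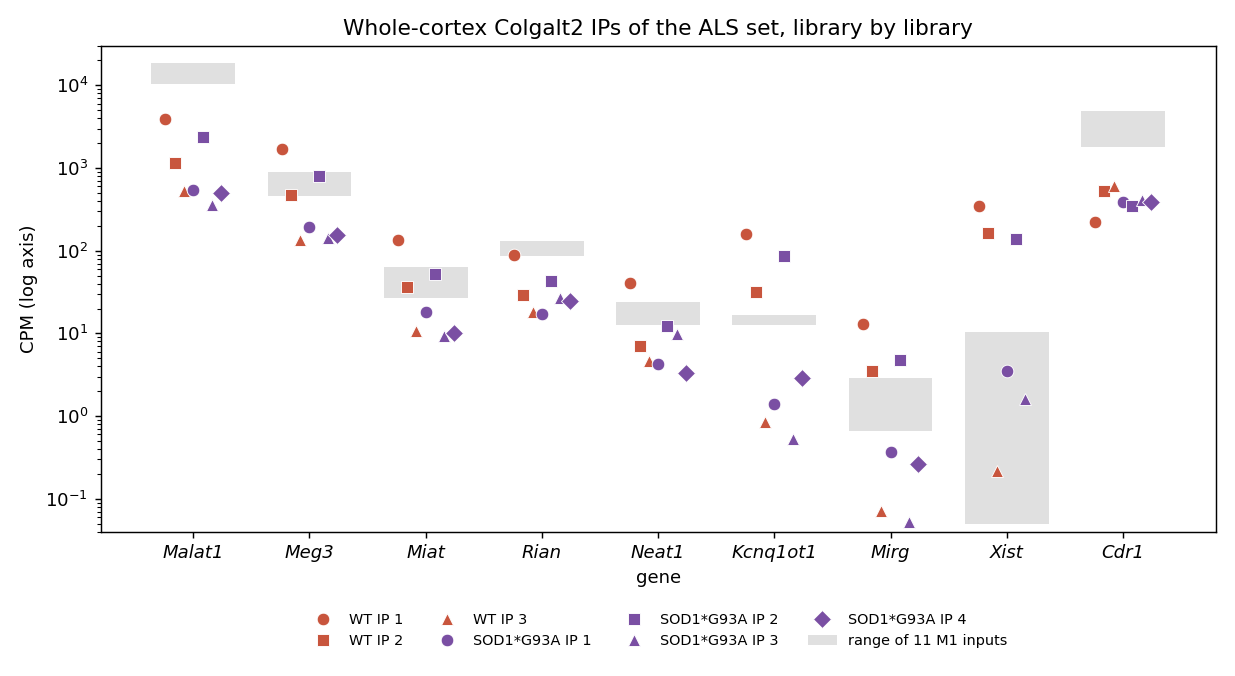
CPM (log axis) of Malat1, Meg3, Miat, Rian, Neat1, Kcnq1ot1, Cdr1, Mirg and Xist in the 7 whole-cortex Colgalt2 IPs, with a grey band for the range over the 11 M1 inputs of the second set. Values of 0 are not drawn; wild-type IPs 1 and 2 and SOD1*G93A IP 2 lie above the band for Kcnq1ot1 and Xist, and all 7 lie below it for Malat1 and Cdr1.

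Between the wild-type littermate IPs of the lines 0 of the 7 members passed, where 13% of all tested genes did. Line and tissue (M1 or whole cortex) cannot be told apart here. At an unadjusted p under 0.05 there was 1 member, Miat, at -3.64 ± 1.29 (adjusted p = 0.167), and DESeq2 called Miat alone. Both Gprin3 IPs of Miat, at 4.42 and 5.12 CPM, lay below the 3 Colgalt2 IPs. Meg3 had -2.79 ± 1.29 (adjusted p = 0.269), and its Gprin3 IPs at 105 and 114 CPM also lay below all 3 Colgalt2 IPs. The remaining 5 members overlapped, with differences down to -0.32 ± 0.53 for Rian (adjusted p = 0.743). Without Colgalt2 wild-type IP 1 the difference for Miat was -2.39 (adjusted p = 0.0051), and that for Cdr1 was -1.07 (adjusted p = 0.00263). Without Colgalt2 wild-type IP 3 the difference was -4.13 for Miat (adjusted p = 0.00471) and -3.28 for Meg3 (adjusted p = 0.0424).

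The effect of the SOD1*G93A transgene on these RNAs was sought within each cell type and in whole M1. In Gprin3 IPs Meg3 alone passed. It measured 105 and 114 CPM in wild-type littermates and 33.2, 74.4 and 38.1 CPM in SOD1*G93A mice, all 3 below both, a log2 fold change of -1.19 ± 0.28 (adjusted p = 0.0272). The call was lost without wild-type IP 1 (-1.24, adjusted p = 0.126), wild-type IP 2 (-1.12, adjusted p = 0.258) or SOD1*G93A IP 3 (-1.04, adjusted p = 0.0875). In the authors' deposited table Meg3 has -1.15 with an adjusted p of 0.541. Of all tested genes 8.15% passed and 5.22% passed as lower. Sex was not balanced here. Ddx3y was at 0 CPM in wild-type IP 1 and all 3 SOD1*G93A IPs, and at 72.4 CPM in wild-type IP 2. The part of sex in the change of Meg3 was not tested.

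Of the other members 5 had negative log2 fold changes in the SOD1*G93A Gprin3 IPs and Cdr1 a positive one, and none of the 6 passed. Rian measured 35.7 CPM in both wild-type IPs and 11.1, 28.9 and 18.7 CPM in SOD1*G93A mice, with no overlap, at -0.89 ± 0.33 (adjusted p = 0.132). Miat measured 4.42 and 5.12 CPM against 0.864, 3.74 and 1.64 CPM, also without overlap, at -1.22 ± 0.76 (adjusted p = 0.383). Kcnq1ot1 overlapped, at 5.50 and 27.8 CPM against 1.30, 8.82 and 2.21 CPM, with -2.05 ± 0.79 (adjusted p = 0.144). Malat1 overlapped, at -0.77 ± 0.75 (adjusted p = 0.639), and so did Neat1, at 5.54 and 3.99 CPM against 0.810, 7.29 and 1.98 CPM. Cdr1 was at 0.32 ± 0.50 (adjusted p = 0.774). Without SOD1*G93A IP 2, the highest of its group, 4 members were called: Meg3, Malat1 at -1.62 (adjusted p = 0.000761), Rian at -1.24 (adjusted p = 0.0415) and Kcnq1ot1 at -3.22 (adjusted p = 0.0288).

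Glial markers moved in the same Gprin3 IPs. Oligodendrocyte markers summed to 526 to 720 CPM in the wild-type and 158 to 164 CPM in the SOD1*G93A IPs, with 8 of 13 tested lower. Astrocyte markers summed to 1839 to 2770 CPM against 845 to 870 CPM, with 9 of 14 lower, and microglia markers to 42.1 to 69.0 CPM against 14 to 24.5 CPM, with 2 of 13 lower. In SOD1*G93A IPs Gjb1, 8 microglia and 7 endothelial markers were at 0 in some library, Kdr and Cdh5 in all 3. Their part in the change of Meg3 was not tested.

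In the whole-cortex Colgalt2 IPs 0 of 7 members passed between genotypes, and 0% of 14785 tested genes passed. The count at an unadjusted p under 0.05 was 1073 genes and 0 members, and DESeq2 called 71 genes and 0 members. Differences ran from -1.43 ± 2.17 for Kcnq1ot1 (adjusted p = 0.916) to -0.26 ± 0.28 for Cdr1 (adjusted p = 0.871). Both genotypes overlapped for every member. Without wild-type IP 1 the differences for Malat1, Meg3, Rian, Neat1 and Kcnq1ot1 turned positive, at 0.15, 0.06, 0.20, 0.31 and 0.45. Without wild-type IP 3 that for Cdr1 was 0.05.

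In M1 input 0 of 7 passed, with 3.33% of tested genes called, 305 higher and 172 lower, or 162 and 278 with library totals. Meg3 came nearest, at 635, 684, 898, 707 and 786 CPM in wild-type littermates and 456, 519 and 728 CPM as the lowest, median and highest of the SOD1*G93A inputs. The groups overlapped, at -0.38 ± 0.11 (adjusted p = 0.0774). It was the 1 member with an unadjusted p under 0.05 and the 1 that DESeq2 called, and without SOD1*G93A input 6 it was -0.47 (adjusted p = 0.00387). Malat1 was at -0.13 ± 0.17 (adjusted p = 0.751) and Cdr1 at -0.26 ± 0.23 (adjusted p = 0.621). Ddx3y stood at 71.2 and 72.8 CPM in wild-type inputs 4 and 5 and at 80.2 CPM in SOD1*G93A input 6. It was at 0 CPM in the remaining inputs of this set, and the part of sex was not tested.

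The genotype effect in Gprin3 IPs was then set against that in M1 input in 1 model. Rian and Kcnq1ot1 passed, at -0.90 ± 0.28 (adjusted p = 0.030) and -1.98 ± 0.67 (adjusted p = 0.0473), where 18.2% of all tested genes passed and 11.4% as lower. With each of the 16 libraries left out in turn Rian lost its call 5 times, at adjusted p-values of 0.0527 to 0.117, and Kcnq1ot1 14 times. Kcnq1ot1 was at -0.38 (adjusted p = 0.765) without wild-type IP 2 and -3.13 (adjusted p = 0.000221) without SOD1*G93A IP 2. Meg3 had -0.82 ± 0.30 (adjusted p = 0.0696), so its lower level in the IP was not shown to differ from that in the input. Between the genotype effects in Gprin3 and Colgalt2 IPs 0 of 7 members and 12 of 15476 genes, 0.0775%, passed. At an unadjusted p under 0.05 there were 0 members and 1433 genes, and DESeq2 called 0 members and 135 genes.

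**Figure D5:**
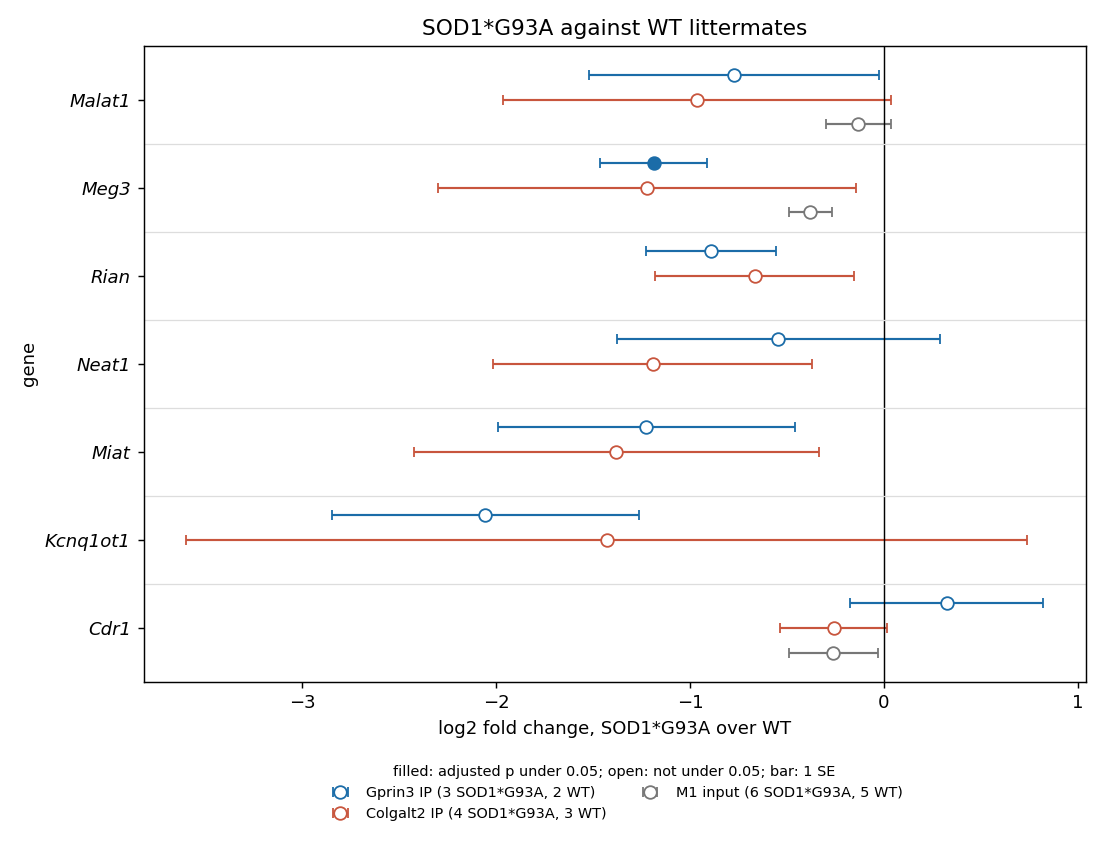
Log2 fold change of SOD1*G93A over wild type (x axis, with bars of 1 SE) for the members in Gprin3 IPs, whole-cortex Colgalt2 IPs and M1 input, the input for Malat1, Meg3 and Cdr1. The 1 filled point, with an adjusted p under 0.05, is Meg3 in Gprin3 IPs.

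Other noncoding RNAs were read from lists of long noncoding RNAs and snoRNA hosts. Of 34 other long noncoding RNAs tested in the baseline Gprin3 line, 15 were lower in the IPs and 4 higher, with a median log2 fold change of -0.82 against -0.03 for all genes. Rmst fell by 5.66 on the log2 scale (adjusted p = 0.00109), and the miR-124 host Mir124a-1hg fell by 4.28 (adjusted p = 9.82e-05). Of 13 snoRNA hosts 8 were lower, with a median of -1.58, and Snhg17 was at -2.83 (adjusted p = 0.00559). Of all genes tested in this line 29.2% were called and 15.3% were called lower. In the Colgalt2 line 5 of 34 other long noncoding RNAs were lower and 1, Xist, was higher, at 2.42 (adjusted p = 0.0479). The Y-linked gene Ddx3y was at 50.0 and 28.2 CPM in the baseline Colgalt2 IPs and 0 and 42.7 CPM in their inputs. The part of sex in the Xist difference was not tested. In the same line 2 of 13 snoRNA hosts were lower, and Gas5, a host whose spliced RNA is exported and then decayed on ribosomes, was at -1.60 (adjusted p = 0.0401). Over all genes tested in the Colgalt2 line 2.65% were called and 0.906% were called lower.

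Neighbours of the members in their imprinted domains, and speckle proteins, were read in the same comparisons. In the Dlk1-Dio3 domain, whose list includes Meg3 and Rian, 4 of 6 tested genes were lower in baseline Gprin3 IPs. Beside the 2 members these were Mirg, at -2.84 (adjusted p = 0.0277), and Rtl1, the paternally expressed retrotransposon-like gene, at -3.99 (adjusted p = 0.0311). In the Kcnq1 domain 2 of 6 were lower, the member Kcnq1ot1 and Cdkn1c, a cell-cycle inhibitor, at -2.27 (adjusted p = 0.00989). Both domain counts stand beside 29.2% of all tested genes called and 15.3% called lower. Of 20 nuclear speckle protein mRNAs 4 were higher and 1 lower, beside 29.2% of all genes called, and Srrm2, a scaffold of speckles, was at 0.92 (adjusted p = 0.00146). On the Gprin3 cross 4 of the 20 were higher and 8 lower in wild-type littermate IPs than in input, beside 40.4% of all genes called. In SOD1*G93A mice 5 were higher and 10 lower, beside 49.8%.

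The speckle mRNAs Son and Srrm2 passed as lower both in Gprin3 against Colgalt2 IPs and in SOD1*G93A against wild-type Gprin3 IPs. In Gprin3 against Colgalt2 IPs Son was at -1.39 (adjusted p = 0.0212) and Srrm2 at -0.96 (adjusted p = 0.0413), 2 of 20 speckle mRNAs, where 6.67% of all tested genes passed and 4.45% as lower. In SOD1*G93A Gprin3 IPs Son was at -1.10 (adjusted p = 0.00155) and Srrm2 at -0.95 (adjusted p = 0.00342), with Pnn, 3 of 20, where 8.15% of all tested genes passed and 5.22% as lower. In those IPs 0 of 11 snoRNA hosts passed and 1 of 35 other long noncoding RNAs passed, as higher. In the Colgalt2 genotype comparison 0 genes of any of these lists passed.

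The genes with the profile most like each member over the 10 groups were ranked by the root mean square distance between centred mean log2(CPM + 0.5) values, among 10607 genes. Meg3 and Miat were each other's nearest, at a distance of 0.29. Mobp, an oligodendrocyte myelin gene, came next for both, at 0.30 for Meg3 and 0.47 for Miat. Rian was nearest to Bmpr1b at 0.13, Neat1 to Cdon at 0.31 and Kcnq1ot1 to Tmem63a at 0.47. Malat1 was nearest to 2900052N01Rik at 0.45, with Cdr1 at 0.54 from it, and Cdr1 was nearest to Fabp7, a gene of astrocytes and progenitors, at 0.40. The profiles share libraries and describe likeness over 10 group means only.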

How the data were processed

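The deposited files give counts per gene for each library, made by the authors with featureCounts of the Subread package on mm10, per the submitters' processing notes; versions and strand setting are not given in the sources used here. Per the labels' protocols, 15 ng of total RNA was amplified (NuGEN Ovation V2) and 10 ug of cDNA went into TruSeq v2 libraries. The authors' deposited comparison tables hold log2 fold changes and p-values from DESeq2 1.26.0, and their 36 columns of per-library values were not used. From the counts, CPM of library totals and tests were computed with edgeR 4.0.16 (R 4.3.3): filterByExpr, TMM factors, robust quasi-likelihood fits of the groups compared, two-sided, with Benjamini-Hochberg adjustment over all genes tested at 0.05, in 12 comparisons. Features lacking a symbol (9, at most 0.0201% of counts) were dropped. Depths of 10863628 to 77220890 counts mean that 1 CPM is 10 or more counts, so only the lowest values rest on a handful. Samples were grouped by title. No library duplicated another. Between IP and input libraries of the same title number, the correlation of deviations from the group means ran from -0.114 to 0.168. With the numbers in the file names it ran from -0.00988 to 0.232, highest in wild-type littermates of the Gprin3 cross. The main tests paired no libraries, so an IP and an input that may share an animal were treated as separate. Alternatives were RLE factors, library totals, 2 other filters, DESeq2 1.42.0, a fit of all 32 libraries, each library left out, replicate blocks and the sequenced read. Members and gene lists were chosen with earlier results of these data known. Named genes are the members, up to 3 genes past the threshold with the largest change per list and comparison, and the 3 nearest profiles per member. The tests were tried on simulated counts. Sequences are from GENCODE M21 and RefSeq. A list of paraspeckle protein genes is not reported here.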

Additional observations from a re-analysis of the deposited data

Results flagged for a closer look

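In 4 of 21 tests of a single library against its group of 4 to 6 libraries, the highest or lowest value lay far from the others; chance flags about 1 in 20 such groups. SOD1*G93A whole-cortex Colgalt2 IP 2 gave 3 of them. Malat1 was at 2364 CPM there, with the nearest library at 536 CPM and the lowest at 361 CPM. Meg3 was at 799 CPM, with the nearest at 196 and the lowest at 141 CPM. Kcnq1ot1 was at 85.4 CPM, with the nearest at 2.89 and the lowest at 0.523 CPM. The other was Kcnq1ot1 at 16.9 CPM in SOD1*G93A input 5, with the nearest input at 14.1 CPM.

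The difference between IP and input was itself different between the baseline lines for 5 members, by a test of that difference in 1 model. On the log2 scale it was -3.53 for Meg3, -1.52 for Rian, -5.16 for Neat1, -3.92 for Miat and -5.42 for Kcnq1ot1, each lower in the Gprin3 line. The genotype effect differed between Gprin3 IPs and M1 input for Rian, by -0.90, and for Kcnq1ot1, by -1.98. Both of these lost their call when some single libraries were left out.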

How the results depend on the processing

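Most single-member log2 fold changes kept their direction and their side of the threshold: 458 of 530 with a library left out, 410 of 443 under other settings and 69 of 80 under the replicate block. For the count of members called, RLE factors changed nothing beyond 1.5 times. In Colgalt2 IP against input (1 called) library totals gave 0, no filter 4, DESeq2 6, a minimum mean of 5 CPM 2, all 32 libraries in 1 fit 2, and a library left out 0 to 5. For SOD1*G93A in Gprin3 IPs (1 called) the fit of all libraries gave 0 and a library left out 0 to 4. For M1 input (0 called) DESeq2 gave 1 and a library left out 0 to 1. Between wild-type littermate IPs (0 called) DESeq2 gave 1, the fit of all libraries 2 and a library left out 0 to 2. For the difference in enrichment between lines (5 called) the fit of all libraries gave 3 and a library left out 4 to 5. For the genotype effect in Gprin3 IP minus input (2 called) library totals gave 0, no filter 1, the fit of all libraries 0 and a library left out 0 to 6. A library left out gave 6 to 7 in baseline Gprin3 IP against input, 4 to 6 between baseline IPs, 6 to 7 in wild-type littermates, 7 in SOD1*G93A IP against input and 0 for SOD1*G93A in Colgalt2 IPs and for the difference between the genotype effects. The cause was not tested, beyond the fewer samples when a library is left out; where that leaves 1 library in a group, it is assumed to vary like the other group. The fit of all libraries shares 1 estimate of the spread, and in it Kcnq1ot1 was not called in baseline Gprin3 IP against input (adjusted p = 0.0934), between baseline IPs (0.0579) or in SOD1*G93A IP against input (0.257). Also lost there were Malat1 between baseline IPs (0.191), Neat1 in wild-type littermate IP against input (0.0714), Meg3 for SOD1*G93A in Gprin3 IPs (0.24), Rian and Kcnq1ot1 in the difference in enrichment (0.0935 and 0.145) and in the genotype effect in IP minus input (0.249 and 0.508), all as adjusted p-values.

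Direction reversed for values that were not called. Neat1 in Colgalt2 IP against input was -0.23 with library totals, -0.000596 with a minimum mean of 5 CPM and -0.38 to 0.61 with a library left out. With a library left out Cdr1 ran from -1.01 to 0.86 between baseline IPs and from -0.77 to 1.12 in the difference in enrichment. For SOD1*G93A in Colgalt2 IPs it ran from -0.60 to 0.051, Malat1 from -1.98 to 0.15, Meg3 from -2.20 to 0.063, Rian from -1.01 to 0.20, Neat1 from -1.62 to 0.31 and Kcnq1ot1 from -5.20 to 0.45. Between wild-type littermate IPs Malat1 ran from -1.13 to 0.37 and Rian from -0.67 to 0.51. Kcnq1ot1 in wild-type littermate IP against input ran from -1.34 to 1.0.

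The replicate numbers of the titles were also tried as a pairing. With them as a replicate block 4 members were called in Colgalt2 IP against input, 3 for SOD1*G93A in Gprin3 IPs (Meg3 at -1.13, Kcnq1ot1 at -1.85 with adjusted p = 0.0232, and Cdr1, higher, at 0.71 with adjusted p = 0.0057), 1 in M1 input and 3 between wild-type littermate IPs; Kcnq1ot1 in wild-type littermate IP against input was -0.12, and -0.15 with the numbers of the file names as the block. No block by file names was run for Colgalt2 IP against input, which share 1 number. The block kept only libraries whose number occurs in both groups, so SOD1*G93A IP 3 was left out of the Gprin3 genotype block. The Gprin3 IPs of the 2 genotypes share no number in the file names. By title number their deviations correlated at 0.026 and 0.031. The labels do not show that these libraries belong together in pairs.

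Over all genes, DESeq2 and edgeR called 1873 and 378 genes in Colgalt2 IP against input, 1558 and 907 between baseline IPs, and 1981 and 1118 for SOD1*G93A in Gprin3 IPs. They called 71 and 0 in Colgalt2 IPs, 904 and 477 in M1 input, 2162 and 1307 for the difference in enrichment, and 135 and 12 for the difference between the genotype effects. Depth limits Neat1, Kcnq1ot1 and Miat in Gprin3 IPs, where a library holds as few as 1 count.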

Other observations

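C230004F18Rik, the annotated gene on the strand opposite Cdr1, did not share the pattern of the Cdr1 counts. Its libraries lay between 2.70 and 14.3 CPM in all 32 samples. Its mean in the IP was 65.5% of input in the baseline Gprin3 line and 79.5% in the baseline Colgalt2 line. For Cdr1 the same shares were 6.15% and 6.77%. Since strand was not stated for the counting, which strand the Cdr1 counts came from was not tested.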
